A study of Mus musculus with 10 samples.

Results

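The genes described here are 10 genes known for their activity in the somatic cells around the oocyte, the granulosa cells of the follicle wall and the cumulus cells that enclose the oocyte: Ptx3, Inha, Inhba, Lhcgr, Fshr, Wt1, Amh, Has2, Foxl2 and Ptgfr. A promoter window was assigned to a gene when its centre lay within 200 bp of an annotated start of that gene in the mouse genome build mm10. All 10 genes had a window, 11 windows in all, of 40537 nuclear windows listed for all 3 pools. Wt1 had 2 windows 18 bp apart with the same calls, so it was counted once. The 10 genes, and a wider list given further on, were chosen with earlier results of these data known. Counts and medians set beside all windows are therefore a description.

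Methylation was measured by low-input bisulfite sequencing in mouse MII oocytes, eggs arrested at metaphase of the second meiotic division, from animals of the strain C57BL6/129. The groups were 3 libraries from 11-month wild-type (WT) females, 3 libraries from 2-month Tet2 knockout (Tet2KO) females and 4 libraries from 2-month WT females. The labels name no allele, promoter or breeding scheme for the knockout, and they differ on whether a library held a single oocyte or 10 oocytes. Each group has 1 pooled set of values per window, so the differences have no replicate check, and p-values are not given.

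Granulosa cells respond to follicle-stimulating hormone through its receptor and later to luteinising hormone, make oestrogen and secrete inhibins, activins and anti-Müllerian hormone. After the ovulatory surge, cumulus cells lay down a matrix of hyaluronan, in which the oocyte leaves the ovary. The oocyte itself sets most of its DNA methylation while it grows, mainly across transcribed genes, and leaves most CpG-rich promoters unmethylated. Tet2 encodes a dioxygenase that oxidises 5-methylcytosine. Bisulfite reads methylcytosine and its oxidised form hydroxymethylcytosine alike, so the levels cover both.

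The level of a window is the percentage of its CpG calls that were methylated, and each bracketed interval is a Wilson 95% interval for counting error only. The median shared window held 245 calls in the 11-month WT pool, 79 in the Tet2KO pool and 131 in the 2-month WT pool. With 0 methylated calls, such a window may have a level of up to 1.22%, 3.80% and 2.29% in these pools. A limit given for 0 methylated calls is 3 calls of the total, which is lower than the upper end of the Wilson interval drawn in the plots (4.23% against 5.13% for Ptx3 in Tet2KO). As a check on the cell type, 9 of 11 measured maternally methylated imprinted genes were at 60% or more in each pool, the cut used. Their levels were 70.1% to 98.0% in 11-month WT, 67.9% to 100% in Tet2KO and 65.0% to 100% in 2-month WT. The remaining genes, Grb10 and Inpp5f, had a named window under 5% in each pool. Whether the windows used for Grb10 and Inpp5f cover the maternally methylated region was not determined. H19, whose paternal copy is methylated in body cells, had levels of 1.61% (3 of 186 calls) in 11-month WT, 2.50% (1 of 40) in Tet2KO and 4.21% (4 of 95) in 2-month WT.

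Most of the 10 promoters carried little methylation in 11-month WT and Tet2KO oocytes, while Amh was almost fully methylated and Lhcgr and Ptgfr were intermediate. The median level over the 10 genes was 2.00% in 11-month WT, 2.36% in Tet2KO and 10.8% in 2-month WT, beside medians of 2.72%, 2.17% and 3.23% over all shared windows. Below 5% lay 7 of the 10 genes in 11-month WT, 7 in Tet2KO and 2 in 2-month WT, while 64.2%, 65.2% and 58.9% of all windows did. In 2-month WT, Fshr and Has2 lay above 5% on 1 methylated call each, of 15 and 14. Without these genes, 5 of 8 were below 5% in 11-month WT, 5 in Tet2KO and 2 in 2-month WT, and the 2-month WT median was 13.9%. Amh lay above 80% in each pool.

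**Figure D1:**
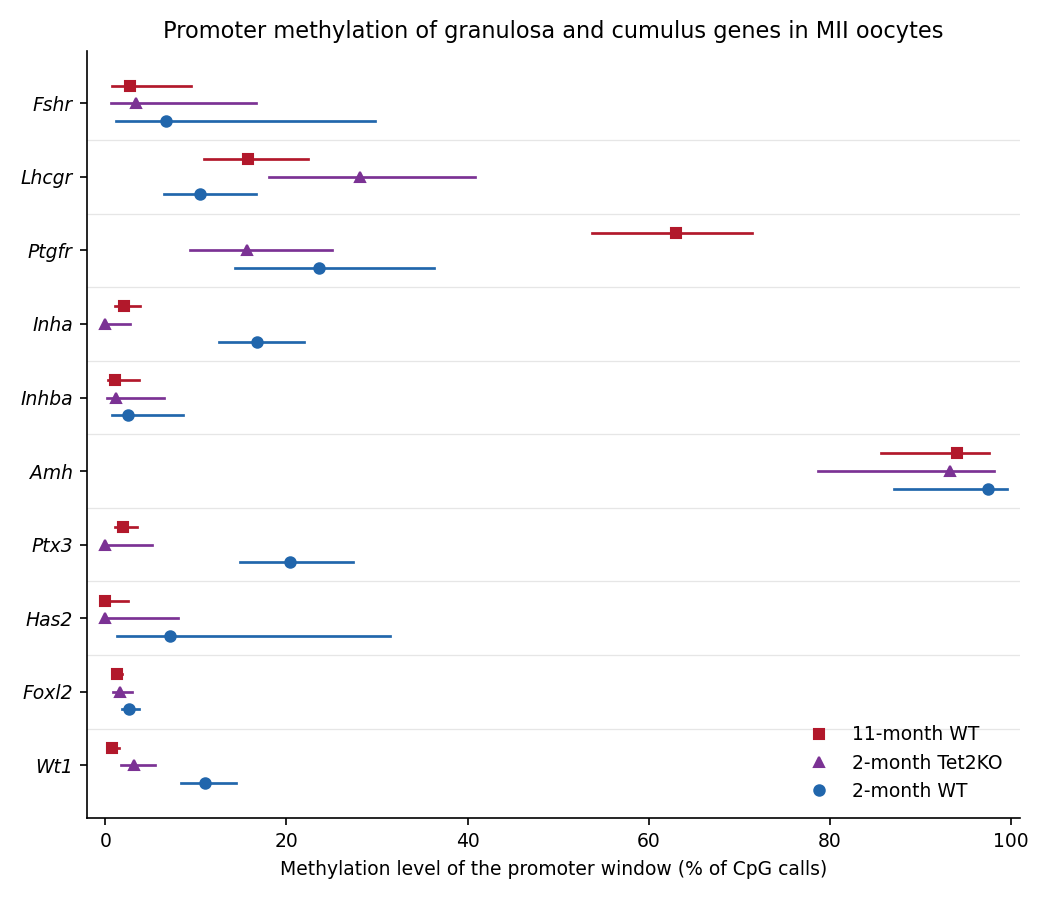
Methylation level of the promoter window of each gene, as percent of CpG calls, in the 11-month WT, 2-month Tet2KO and 2-month WT pools; bars are Wilson 95% intervals of the pooled calls and hold no spread between libraries. Amh lies at 93.3% or more in each pool, Ptgfr at 63.1% in 11-month WT and at 23.6% or less in the other pools, and Ptx3, Inha and Wt1 are highest in 2-month WT.

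The sequences shown are the start-site regions of the 4 genes whose levels differed most between pools, from 250 bases before to 50 after a start, 5′ to 3′ on the gene's strand, taken from RefSeq (GRCm38.p6, the assembly mm10 represents). Capitals mark CpG dinucleotides, the sites that carry methylation. Ptgfr is shown at chr3:151837479-151837778 (minus strand), Lhcgr at chr17:88791965-88792264 (minus), Ptx3 at chr3:66219637-66219936 (plus) and Inha at chr1:75507359-75507658 (plus). The start used for Inha there lies 533 bp from its window's centre, and the region lies inside the window. That window was assigned by another start of Inha, 1 bp from its centre, which the region shown does not include.
Ptgfr: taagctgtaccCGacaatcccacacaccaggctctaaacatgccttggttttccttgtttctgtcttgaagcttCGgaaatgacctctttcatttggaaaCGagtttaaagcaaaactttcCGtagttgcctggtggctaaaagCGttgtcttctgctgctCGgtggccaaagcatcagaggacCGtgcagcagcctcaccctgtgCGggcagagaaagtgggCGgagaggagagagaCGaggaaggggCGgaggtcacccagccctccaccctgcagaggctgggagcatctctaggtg
Lhcgr: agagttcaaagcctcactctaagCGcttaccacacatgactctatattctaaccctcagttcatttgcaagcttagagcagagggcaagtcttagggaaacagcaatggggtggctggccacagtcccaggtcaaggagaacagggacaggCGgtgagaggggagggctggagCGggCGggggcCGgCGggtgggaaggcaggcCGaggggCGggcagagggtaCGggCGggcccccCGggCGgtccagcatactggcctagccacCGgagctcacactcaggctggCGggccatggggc
Ptx3: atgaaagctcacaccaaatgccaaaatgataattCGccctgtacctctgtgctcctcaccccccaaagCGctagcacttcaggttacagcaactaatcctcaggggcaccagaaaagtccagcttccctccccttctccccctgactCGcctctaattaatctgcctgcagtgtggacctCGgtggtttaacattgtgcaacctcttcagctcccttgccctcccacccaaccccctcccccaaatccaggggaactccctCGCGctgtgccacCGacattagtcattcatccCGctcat
Inha: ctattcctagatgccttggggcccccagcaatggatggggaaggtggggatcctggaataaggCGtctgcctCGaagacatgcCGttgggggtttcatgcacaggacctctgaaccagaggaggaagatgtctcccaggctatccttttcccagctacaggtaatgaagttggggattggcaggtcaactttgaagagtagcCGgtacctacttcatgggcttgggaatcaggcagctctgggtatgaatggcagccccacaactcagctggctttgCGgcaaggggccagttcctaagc

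These 300-base regions held 11 CpGs in Ptgfr, 14 in Lhcgr, 8 in Ptx3 and 5 in Inha, beside a median of 7 over 32841 promoters of that length (lower quartile 3, upper quartile 20). Of the other members with a RefSeq promoter, Foxl2 held 27, Inhba 7 and Fshr 6. Foxl2 alone of the 7 lay above the upper quartile, and the Inha region had the fewest. Because the Inha region leaves out the start its window is centred on, its CpG count and the search below do not describe that start. Letters of factors known to act on granulosa genes were searched on both strands of the 7 regions. The cyclic AMP response element TGACGTCA (in 1.79% of all promoters), the TGACG it contains (20.8%), the SF-1 site CAAGGTCA (1.56%), the GATA site AGATAA (11.2%) and the AP-1 site TGAGTCA (5.20%) had no match in them. The TATA box letters TATAAA (13.6%) matched once, in Inhba. Only these exact letters were searched, so sites with other letters may be present. The Ptx3 region holds TGATAA, which differs from the searched GATA letters in the first base.

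Among the hormone receptors, Fshr, the receptor for follicle-stimulating hormone, was at 2.74% in 11-month WT (0.755 to 9.45), 3.33% in Tet2KO (0.591 to 16.7) and 6.67% in 2-month WT (1.19 to 29.8). These levels rest on 73, 30 and 15 calls of the window at chromosome 17, 89199613 to 89201612, and their intervals overlap. Lhcgr, the receptor for luteinising hormone, was at 15.8% of 152 calls in the 11-month WT pool (10.8 to 22.4), 28.1% of 57 calls in Tet2KO (18.1 to 40.8) and 10.5% of 143 calls in 2-month WT (6.46 to 16.6). The Lhcgr window (chromosome 17, 88790977 to 88792976) was thus partly methylated in each pool, and the Tet2KO interval lay above that of 2-month WT.

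Ptgfr, the receptor for prostaglandin F2 alpha, known for its part in the regression of the corpus luteum, had the widest range of the 8 genes with at least 20 calls in each pool. Its window (chromosome 3, 151836631 to 151838630) was at 63.1% of 111 calls in the 11-month WT pool (53.8 to 71.5), 15.7% of 83 calls in Tet2KO (9.39 to 24.98) and 23.6% of 55 calls in 2-month WT (14.4 to 36.3). The 11-month WT interval overlapped neither of the others, and those of Tet2KO and 2-month WT overlapped. By the deposited fraction, the mean over CpG positions, Ptgfr was at 64.6%, 25.8% and 25% in the same order.

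A pair of further windows, not among the 11, lies inside Ptgfr, with centres 1024 and 1505 bp downstream of the RefSeq start, whereas the assigned window is centred 102 bp upstream. The annotation used here lists selected starts, so whether these windows are centred on starts of other Ptgfr transcripts was not determined. They share 874 and 393 of 2000 bp with the assigned window, so their calls are in part the same. The window at 1024 bp was at 56.5% of 85 calls in the 11-month WT pool, 7.69% of 65 calls in Tet2KO and 3.33% of 30 calls in 2-month WT. The window at 1505 bp was at 77.2% of 57 calls in the 11-month WT pool, 7.69% of 26 calls in Tet2KO and 38.2% of 68 calls in 2-month WT. In all 3 windows 11-month WT was the highest pool, while the order of Tet2KO and 2-month WT changed between windows. The Tet2KO value at 1505 bp came from 6 positions, and its deposited fraction was 33.3%.

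**Figure D2:**
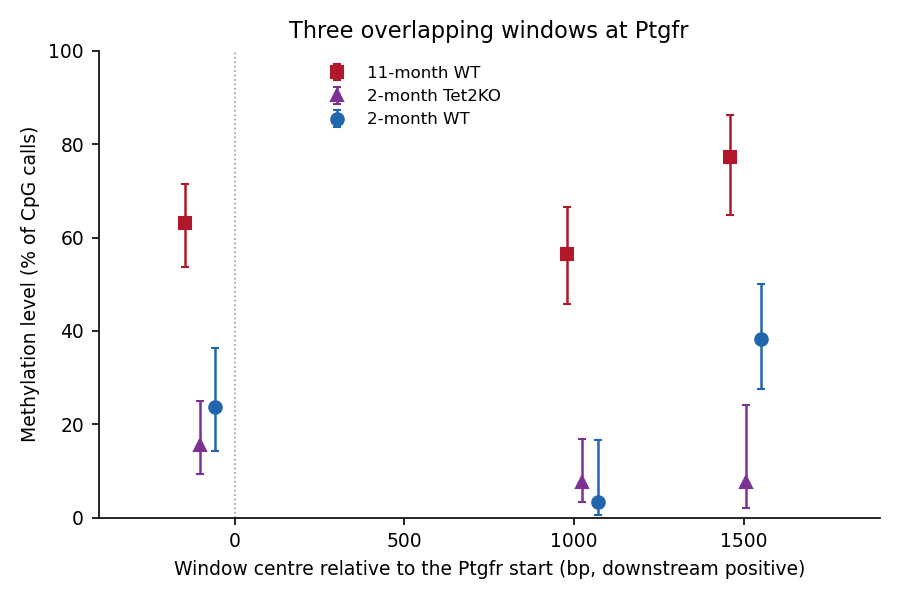
Methylation level of the 3 overlapping windows at Ptgfr, as percent of CpG calls, against the distance of the window centre from the RefSeq start in bp; points are the 3 pools, drawn side by side, and bars are Wilson 95% intervals. The 11-month WT level is 56.5% or more in each window, and the highest other level is 38.2%, in 2-month WT.

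Among the secreted factors of the transforming growth factor beta family, Inha and Inhba were low at 11 months and in Tet2KO, and Amh was high in each pool. Inha encodes the alpha subunit of the inhibins, which restrain the release of follicle-stimulating hormone. It was at 2.06% of 437 calls in the 11-month WT pool (1.09 to 3.87), 0 of 140 calls in Tet2KO, which allows up to 2.14%, and 16.7% of 239 calls in 2-month WT (12.54 to 22.0). The 2-month WT interval lay above both others at this window (chromosome 1, 75506077 to 75508076). A window named for the neighbouring gene Obsl1, which shares 1285 bp with that of Inha, was at 1.59% in 11-month WT, 0.745% in Tet2KO and 9.06% in 2-month WT.

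Inhba encodes the beta A subunit shared by activin A and inhibin A. Its window was at 1.04% of 192 calls in the 11-month WT pool, 1.19% of 84 calls in Tet2KO and 2.47% of 81 calls in 2-month WT, with overlapping intervals. The Inhba window (chromosome 13, 16010851 to 16012850) lies inside the transcribed pseudogene B230303A05Rik. Amh, the hormone of small growing follicles that restrains their recruitment, was at 94.0% of 67 calls in the 11-month WT pool (85.6 to 97.7), 93.3% of 30 calls in Tet2KO (78.7 to 98.2) and 97.5% of 40 calls in 2-month WT (87.1 to 99.6). Its window (chromosome 10, 80804248 to 80806247) had the fewest covered CpG positions of the 10, at most 18 in a pool. It also covers part of Sf3a2, a splicing factor gene that ends 318 bp before the RefSeq start of Amh.

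Ptx3 and Has2 act in the expanding cumulus, where Has2 synthesises hyaluronan and Ptx3 helps to hold the matrix together. Ptx3 was at 1.93% of 518 calls in the 11-month WT pool (1.05 to 3.52), 0 of 71 calls in Tet2KO, which allows up to 4.23%, and 20.4% of 157 calls in 2-month WT (14.8 to 27.4). The 2-month WT interval overlapped neither other interval. The Ptx3 window (chromosome 3, 66218910 to 66220909) lies wholly inside the longer gene Veph1, and its deposited fraction was 2.25% in 11-month WT, 0% in Tet2KO and 29.98% in 2-month WT. Has2 was at 0 of 151 calls in the 11-month WT pool and 0 of 44 in Tet2KO, which allow up to 1.99% and 6.82%, and at 1 of 14 calls in 2-month WT, or 7.14% (1.27 to 31.5). A single call decides that 2-month WT level. The Has2 window (chromosome 15, 56693540 to 56695539) also holds part of the antisense gene Has2os.

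Foxl2 and Wt1 are transcription factors, Foxl2 a keeper of granulosa identity and Wt1 a factor of the early gonad and of immature follicles. Both have CpG-rich windows, with up to 190 covered positions at Foxl2 (chromosome 9, 98954607 to 98956606) and 137 at Wt1 (chromosome 2, 105125529 to 105127528). Foxl2 was at 1.25% of 1993 calls in the 11-month WT pool, 1.58% of 568 calls in Tet2KO and 2.59% of 1042 calls in 2-month WT. Wt1 was at 0.754% of 1061 calls in the 11-month WT pool (0.383 to 1.48), 3.13% of 351 calls in Tet2KO (1.76 to 5.52) and 11.0% of 408 calls in 2-month WT (8.35 to 14.4). The 3 intervals of Wt1 did not overlap, and its window takes in the start of the antisense transcript Wt1os. A further window inside Wt1, centred 4354 bp away and sharing no base, was at 2.45% of 163 calls in the 11-month WT pool, 2.63% of 38 calls in Tet2KO and 0 of 73 calls in 2-month WT, which allows up to 4.11%. A window that shares 926 bp with that of Wt1, centred 1074 bp from it, was at 1.46% of 205 calls in 11-month WT. It was at 0 of 94 calls in Tet2KO, which allows up to 3.19%, and 2.38% of 84 calls in 2-month WT (0.655 to 8.27). Its difference with age was -0.918 points (-6.89 to 2.33). The 2-month WT level of 11.0% was thus not seen in either of these windows.

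Windows with more covered CpG positions tended to be less methylated over the whole table, and the members are set beside windows of their class. The largest number in any pool was used, and it grows with depth. Among 11293 windows with 5 to 29 positions, the class of Amh, 27.5%, 27.9% and 26.6% were at 80% or more in 11-month WT, Tet2KO and 2-month WT. Among 14440 windows with 30 to 79 positions, the class of the 7 members other than Amh, Foxl2 and Wt1, 7.82%, 8.30% and 9.12% lay between 20% and 80%. Among 14804 windows with 80 or more, the class of Foxl2 and Wt1, 85.1%, 86.0% and 73.3% lay under 5%, and the mean level was 3.96%, 3.67% and 5.21%. The 2-month WT pool was thus the highest in that class as a whole. This shift moves with the 2-month WT level of Wt1. The 2-month WT mean was also the highest in the class of 30 to 79 positions, which holds Ptx3 and Inha. There the mean level was 15.6%, 15.4% and 16.0% in the same order of pools, and 64.4%, 64.6% and 60.1% lay under 5%. With 5 to 29 positions 2-month WT had the lowest mean, 34.7% against 35.9% and 35.5%. The part of these shifts in the levels of Wt1, Ptx3 and Inha was not tested.

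**Figure D3:**
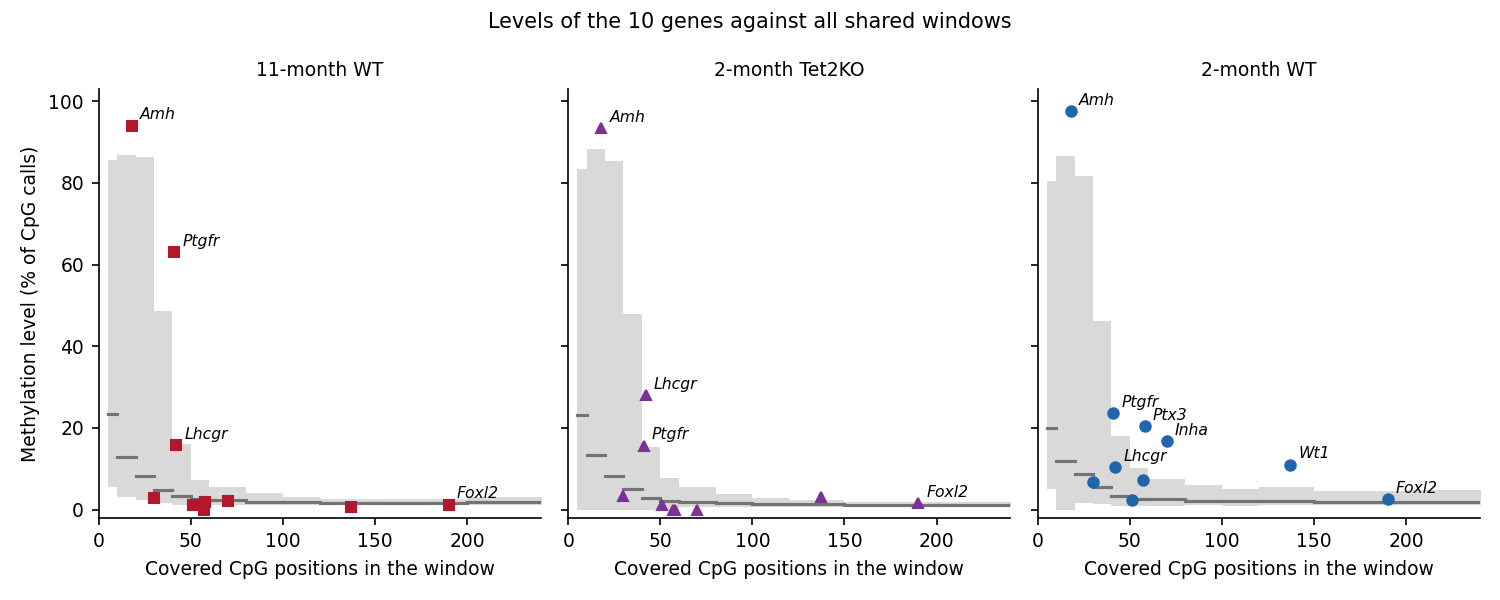
Methylation level, as percent of CpG calls, against the largest number of covered CpG positions of the window in any pool, in the 11-month WT, Tet2KO and 2-month WT pools; coloured points are the 10 genes, grey bands the interquartile range and grey lines the median of all shared windows of similar position number. Amh and Ptgfr lie above the band in each pool, Ptgfr by little in Tet2KO (15.7%). Lhcgr and Wt1 lie above it in Tet2KO, and Ptx3, Inha and Wt1 in 2-month WT.

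The WT pools of 11 and 2 months ask what changes at these promoters with the age of the mother. Of the 10 genes, 1 was higher by 20 points or more at 11 months, Ptgfr, where a point is a percentage point of level; over all windows the share higher by that much was 2.78%. None of the 10 was lower by 20 points, and 2.76% of all windows were. Ptgfr was higher by 39.4 points (Newcombe 95% interval 23.7 to 51.9), the interval lying above 0 at 10.0% of all windows, and 319 of the 40537 windows, or 0.787%, were higher by as much. The windows further inside the gene were higher by 53.1 points (36.1 to 63.5) and 39.0 points (21.8 to 52.9).

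The median difference with age over the 10 genes was -3.70 points, beside 0 over all windows. That median was -2.45 points over the 8 genes with at least 20 calls in each pool and -1.43 over the 7 with at least 50. The members were chosen with earlier results of these data known, so their counts beside all windows are a description only. Lower by 10 points or more were Ptx3, Inha and Wt1, 3 of 10, as were 7.74% of all windows. Their differences were -18.5 points for Ptx3 (-25.5 to -12.7), -14.7 for Inha (-20.02 to -10.1) and -10.3 for Wt1 (-13.7 to -7.50). The interval lay below 0 at 5 of 10 genes, these 3 with Foxl2 (-1.34 points) and Has2 (-7.14), and at 16.3% of all windows. Has2 counts here on 1 methylated call of 14 in 2-month WT. In a window that shares 1414 bp with that of Has2, the difference was -1.06 points (-9.73 to 1.21). For Lhcgr (5.30 points, -2.55 to 13.1), Fshr (-3.93, -27.2 to 4.74), Inhba (-1.43, -7.57 to 1.79) and Amh (-3.47, -12.1 to 7.53) the interval included 0. At Fshr it spans more than the 20 points used as the threshold, so such a difference was not detectable at that depth. The 2-month WT window of Ptx3 held 0.303 times the calls of 11-month WT and that of Inha 0.547 times, where the median window held 0.551 times.

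**Figure D4:**
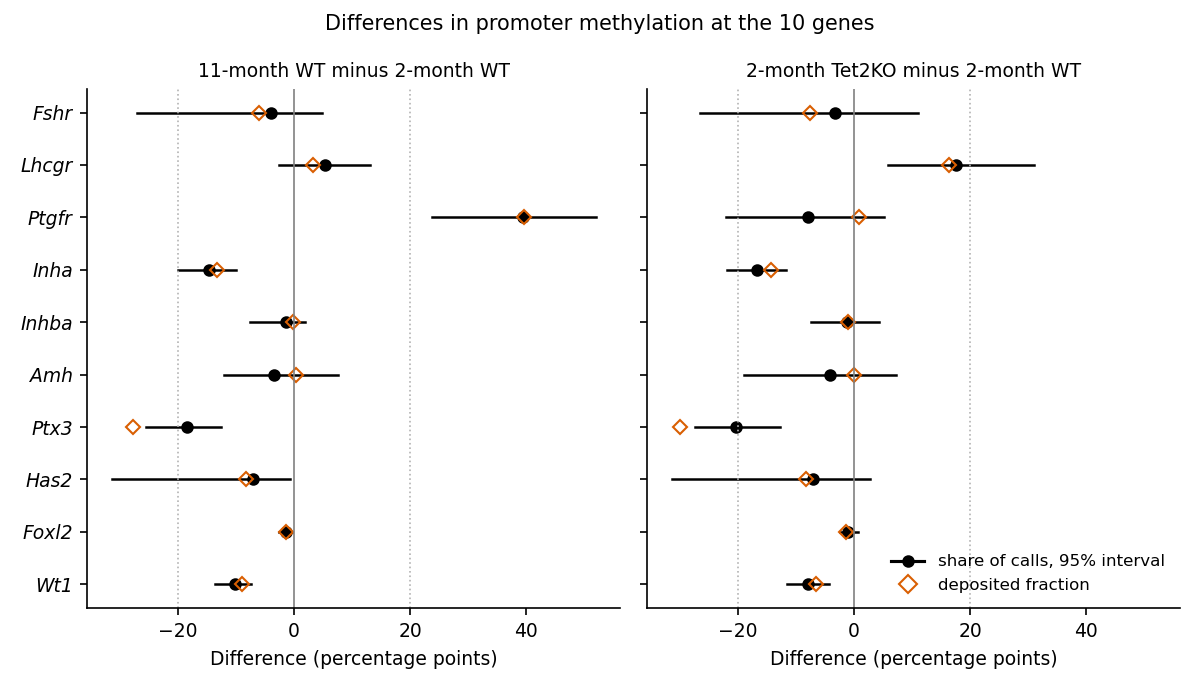
Difference in methylation level, in percentage points, of 11-month WT minus 2-month WT (left) and 2-month Tet2KO minus 2-month WT (right) for the 10 genes; filled points are shares of calls with Newcombe 95% intervals, open diamonds the same difference from the deposited fraction, and dotted lines mark 20 points either way. Ptgfr stands at 39.4 points for age and at -7.97 for Tet2KO, and Lhcgr at 5.30 and 17.6.

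The Tet2KO comparison at 2 months asks what loss of Tet2 changes at these promoters. It shares the 2-month WT pool with the age comparison, so the comparisons are not independent. Ptx3 was lower in Tet2KO by 20 points or more, 1 of 10 genes, as were 3.22% of all windows, and none was higher by that much, beside 3.29%. Its difference was -20.4 points (-27.4 to -12.8). Inha was lower at -16.7 points (-22.0 to -11.8) and Wt1 at -7.90 (-11.6 to -4.30), so that the interval lay below 0 at 3 of 10 genes and at 13.2% of all windows.

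Lhcgr was the single member higher in Tet2KO, by 17.6 points (5.88 to 31.0). A difference as large in that direction was found at 1583 of all windows, or 3.91%, and the interval lay above 0 at 7.58% of all windows. Ptgfr was at -7.97 points (-22.2 to 5.17), and by the deposited fraction at 0.833 points. Further inside Ptgfr, the window at 1024 bp was at 4.36 points (-9.67 to 13.8) and that at 1505 bp, with 26 calls from 6 positions in Tet2KO, at -30.5 points (-43.7 to -11.0), so the direction differed between measures and windows. Fshr (-3.33 points), Amh (-4.17), Has2 (-7.14), Inhba (-1.28) and Foxl2 (-1.01) had intervals that included 0. The median difference over the 10 genes was -5.65 points, beside -0.241 over all windows.

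Tet2KO and 11-month WT oocytes, which differ in both age and genotype, were then set side by side. Ptgfr was lower in Tet2KO by 20 points or more, beside 1.94% of all windows, at -47.4 points (-57.9 to -34.3). Lhcgr was higher at 12.3 points (0.290 to 26.0) and Wt1 at 2.38 points (0.825 to 4.80), and the interval lay above 0 at 7.77% of all windows. At Ptx3 and Inha the differences were -1.93 points (-3.52 to 3.28) and -2.06 points (-3.87 to 0.783), and the intervals of these and of the remaining members included 0. At Ptx3 and Inha the pool that differed was thus 2-month WT, and at Ptgfr it was 11-month WT. H19, a locus methylated in somatic cells, had its highest level in 2-month WT, on 4 of 95 calls, where its interval overlaps the others. Its deposited fraction was 1.11% in 11-month WT, 1.19% in Tet2KO and 1.74% in 2-month WT. Of the maternally methylated genes, some were highest in 2-month WT and some lowest. Mcts2 was at 87.2%, 75% and 92.9% in the same order of pools, and Peg10 at 70.1%, 67.9% and 65.0%. The part of other cells in these levels was not tested.

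The windows most like that of Ptgfr over the 3 pools were sought among 24667 other named windows with at least 20 calls in each, by the Euclidean distance of the levels. The nearest was that of Bcl2l2, at 60.3% in 11-month WT, 14.6% in Tet2KO and 22.5% in 2-month WT, a distance of 3.18 points. Rnf225, Myo1c, Emc9 and Trim72 followed at 7.20, 7.35, 8.41 and 8.67 points. With 3 values per window such a likeness is a description only.

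A wider list covered granulosa and cumulus function, gonadotropin response and signalling of activins, inhibins, AMH and bone morphogenetic proteins, Gdf9 and Bmp15 included. Of its 80 genes, 64 had a named window. Under 5% in each pool lay 41 of the 64, or 64.1%, beside 46.6% of all windows; a gene with several windows is given by a well-covered one, and all windows are not chosen in that way. Among the 41 were Tnfaip6 and Hapln1 of the cumulus matrix, picked after their values were seen, each with 0 methylated calls. Tnfaip6 had 114 calls in 11-month WT, 22 in Tet2KO and 38 in 2-month WT, so that up to 13.6% is allowed in Tet2KO, and Hapln1 had 138, 75 and 66. At 11 months 1 gene was higher and 2 were lower by 20 points or more, and in Tet2KO 0 were higher and 2 lower. Over all windows the shares were 2.78% and 2.76% for age and 3.29% and 3.22% for Tet2KO, so the counts of the list are near the background. Medians were -0.0596 points for age and 0 for Tet2KO, beside 0 and -0.241 over all windows.

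The lower genes were the same in both comparisons, Id1 and Id2, inhibitors of basic helix-loop-helix factors and targets of bone morphogenetic protein signalling. Id1 was at 9.63% of 322 calls in the 11-month WT pool, 12.2% of 82 calls in Tet2KO and 36.3% of 289 calls in 2-month WT. Id2 was at 1.10% of 364 calls in the 11-month WT pool, 1.59% of 126 calls in Tet2KO and 26.2% of 248 calls in 2-month WT. As at Ptx3 and Inha, the 2-month WT interval lay above both others. The gene higher at 11 months was Esr1, an oestrogen receptor, at 40.5% of 37 calls in the 11-month WT pool, 25% of 80 calls in Tet2KO and 16.7% of 78 calls in 2-month WT; its difference with age was 23.9 points (6.63 to 41.2).

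Id1 and Id2 belong to the 17 measured genes of activin, inhibin, AMH and bone morphogenetic protein signalling, and Esr1 to the 19 of granulosa identity and hormone receptors. These counts by function are a description, beside the shares of all windows given above. In the matrix group Adamts1, a protease of the expanding cumulus, was singled out after its values were seen. It was at 0.824% of 849 calls in the 11-month WT pool, 0.922% of 217 calls in Tet2KO and 12.4% of 476 calls in 2-month WT. Of the 8 measured genes of that group, 1 was lower by 10 points or more with age, Adamts1. Over the list 5 of 64 were, beside 7.74% of all windows, so the difference of Adamts1 is not set apart from the background. Like Amh, 3 of the 64 genes were at 50% or more in each pool, as were 12.4% of all windows. Star, which carries cholesterol into mitochondria for steroid synthesis, was at 91.7%, 100% and 96.3% in 11-month WT, Tet2KO and 2-month WT. Runx2, a transcription factor of ovulatory follicles, was at 92.3% of 52, 100% of 19 and 100% of 21 calls, and Sgk1, a kinase that responds to follicle-stimulating hormone, at 96.4%, 100% and 95.3%.

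**Figure D5:**
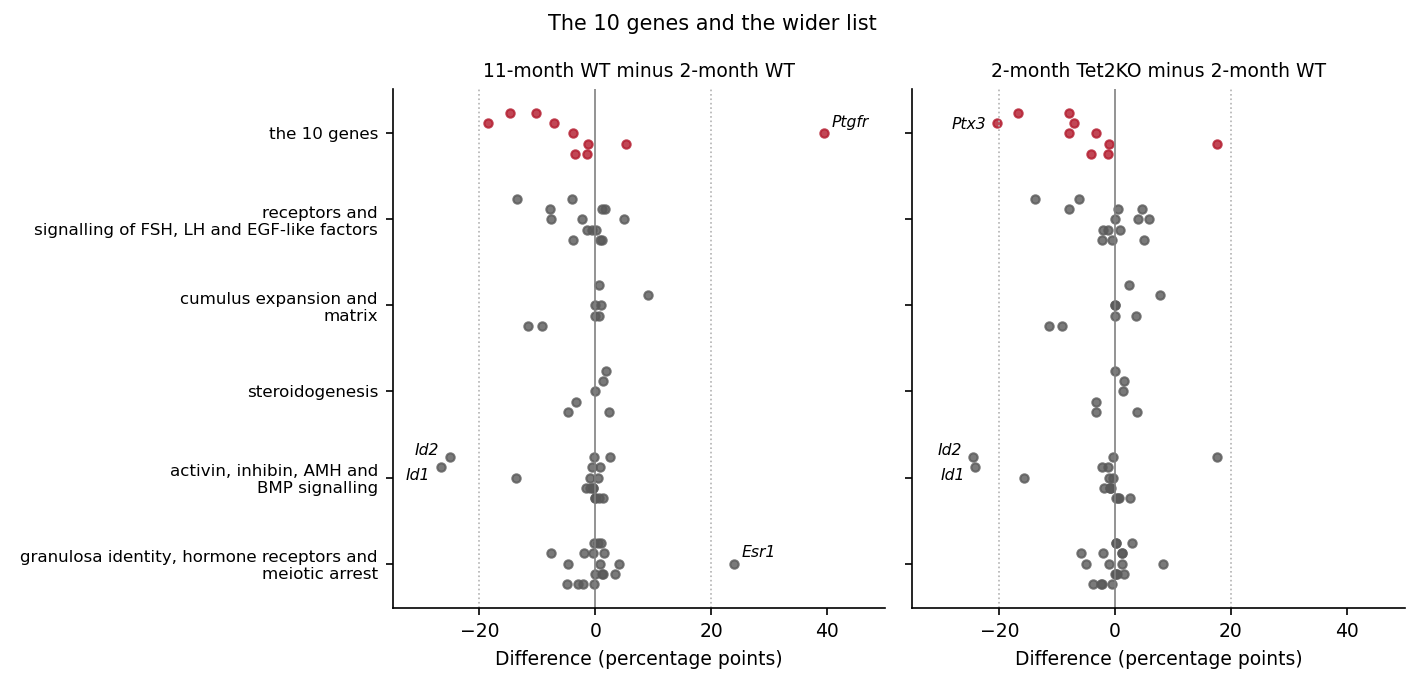
Differences in methylation level, in percentage points, of 11-month WT minus 2-month WT (left) and Tet2KO minus 2-month WT (right), 1 point per gene, for the 10 genes (top) and the 64 measured genes of the wider list by function; dotted lines mark 20 points either way and genes past them are named. Most genes of the wider list lie near 0, with Id1 and Id2 below the lower line in both panels and Esr1 above the upper line for age.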

How the data were processed

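Windows of 2000 bp around annotated transcript starts came from 3 deposited tables, 1 per group, each pooling the 3 or 4 libraries of that group. Per the submitters' processing notes, Trimmomatic, Bismark and mm10 are named (order and further steps not given in the sources used here). Per window, the deposited counts give methylated CpG calls, and the deposited coverage gives all CpG calls. As a fraction the authors deposited the mean, over covered positions, of the methylated share: in 660 windows with 1 call at each position it equalled the share of calls in 100% of cases, within 0.001. The 2-month WT table breaks off within chromosome X, and windows after that point were not used here.

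Levels are 100 times methylated over all calls. Depth was 30431118 calls in 11-month WT, 8610762 in Tet2KO and 15046863 in 2-month WT, with mitochondrial windows, left out here, at 44.2%, 36.5% and 37.6%. Wilson and Newcombe 95% intervals cover counting error only; calls of one read or of PCR copies are not independent. Values being pooled, the design's branch without a test applied. Calculations (Python 3.11.15, numpy 2.4.6, pandas 2.3.3) were tested on simulated data.

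The reference gives gene ends and, for most genes, 1 or more starts with strand (GRCm38.p6), not every transcript, so 200 bp was measured from those; genes without a strand took either end. Of the shared windows 68.2% were named. A gene with several windows is given by that with the most calls in its shallowest pool. The members and lists were chosen with earlier results of these data known. Named genes were all members; in the wider list those 20 points apart with an interval that excludes 0 (at most 12 per comparison with 2-month WT) and up to 6 at 50% or more in each pool; and the 5 windows most like that of the widest-ranging member. Tnfaip6, Hapln1 and Adamts1 fall outside this rule. Alternatives were the deposited fraction, minima of 20 and 50 calls, thresholds of 10 and 30 points, distances of 100 and 500 bp, and the mean over a gene's windows.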

Additional observations from a re-analysis of the deposited data

How the results depend on the processing

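Pooled values limit everything above: no library was left out, for lack of values per library. No paired analysis was possible because each group has a single pooled value per window. Taking a count within 1.5 times, and a median or a gene's value inside the counting interval of the reported one, as unmoved, 73 counts and medians were unmoved over the alternatives and 11 moved; for single genes 187 were unmoved and 5 moved. Those intervals are wide: the age median of the 10 genes was -2.45 and -1.43 points with at least 20 and 50 calls, against -3.70. Changes of sign were counted for the 10 genes only. In the wider list they were not counted, and some occurred by the fraction (Inhbb for age, -0.0182 against 1.27 points). Among the 10 genes, no difference whose interval excluded 0 changed sign. By the deposited fraction 4 others of these genes did: Amh for age (0.377 points), Ptgfr for Tet2KO (0.833), and Inhba (-0.901) and Fshr (-1.62) for Tet2KO against 11-month WT. The median of that last comparison, 0.0744 points, was -0.671 by the fraction and -0.274 with at least 20 calls. The median level with at least 20 calls was a setting chosen after seeing the data.

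With the deposited fraction, Ptx3 was also lower by 20 points with age, so 1 gene was lower instead of 0. In the wider list 1 gene was then higher in Tet2KO, Bmp15 (21.4 points), and 1 lower, Id2 (-22.3). Bmp15 rests on 3 methylated of 17 calls in Tet2KO. The share of all windows was not taken by the fraction, so these counts have no background. Ptx3 differed by -27.7 points for age and -30.0 for Tet2KO by that measure. At 10 points, 3 genes were lower with age, as were 7.74% of all windows. In Tet2KO 1 was higher and 2 lower against 2-month WT, and 1 was higher against 11-month WT. For these Tet2KO counts the share of all windows was not taken, so they cannot be set against a background. At 30 points, 0 were lower in Tet2KO against 2-month WT. Within 100 bp the Ptgfr window, 102 bp from its start, is not assigned, which left 9 genes, 0 higher with age and 0 lower in Tet2KO against 11-month WT. With at least 50 calls, 50 genes of the wider list remained and 0 were higher with age, Esr1 having 37 calls in 11-month WT. Fshr and Has2, with 15 and 14 calls in 2-month WT, are limited by depth.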
